A study of Homo sapiens with 6 samples.

Results

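The chemokine ligands described here are 9 genes for secreted attractants that NK cells can make: CCL1, CCL3, CCL4, CCL5, CCL22, CXCL8, CXCL10, XCL1 and XCL2. They were picked by symbol from the 36601 genes of the count table, and all 9 have a row in it. RNA was sequenced from NK92, an IL-2 dependent line derived from a human NK lymphoma, that stably carried either a control hairpin (shCtrl) or a hairpin targeting the lncRNA miR155HG (shmiR155HG). Both groups received IL-2 (1000 U/mL) together with IL-12 (10 ng/mL), and RNA was taken at 12 h for 3 libraries per group. Wherever 3 values are given for a group, they stand in the order of replicates 1, 2 and 3. No library without cytokines was analysed here, so the values describe stimulated cells only. The treatment labels of shmiR155HG replicates 2 and 3 name shmiR156HG and shmiR157HG, whereas their titles read shmiR155HG, and the titles were followed. Whether the 3 libraries of a group came from separate cultures or transductions is not given in the sources used here, so p-values measure the spread between these libraries, which may be technical.

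Chemokines are small secreted proteins that bind G protein-coupled receptors on leukocytes and direct their migration. CCL3, CCL4 and CCL5 draw monocytes, T cells and NK cells, and activated NK cells are a well-known source of all of them. XCL1 and XCL2, the lymphotactins, act on XCR1, the receptor by which cross-presenting dendritic cells find NK cells and CD8 T cells. CXCL8 acts on CXCR1 and CXCR2 of neutrophils, CXCL10 acts on CXCR3 of activated lymphocytes and is induced by interferons, CCL22 acts on CCR4 and CCL1 on CCR8.

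The genes lie in few places of the genome. CCL3 (ENSG00000277632) occupies 36088256 to 36090169 of chromosome 17 (hg38, minus strand), and CCL4 (ENSG00000275302) occupies 36103827 to 36105621 on the plus strand, so the 2 genes point away from each other across 13.7 kb. CCL5 (ENSG00000271503) lies on the same chromosome from 35871491 to 35880793 and CCL1 (ENSG00000108702) from 34360328 to 34363233, both on the minus strand. XCL2 (ENSG00000143185, 168540768 to 168543997, minus strand) and XCL1 (ENSG00000143184, 168576605 to 168582069, plus strand) form another divergent pair, 32.6 kb apart on chromosome 1. CXCL8 (ENSG00000169429, 73740519 to 73743716, plus strand) and CXCL10 (ENSG00000169245, 76021118 to 76023497, minus strand) are on chromosome 4, and CCL22 (ENSG00000102962, 57358783 to 57366189, plus strand) is on chromosome 16. All 9 are annotated as protein-coding genes.

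Several of these genes have near-identical copies, which bears on how reads were assigned. XCL1 and XCL2 differ at 5 of 342 coding positions. CCL3 and its copy CCL3L1 (ENSG00000276085, named CCL3L3 in GENCODE v44) differ at 12 of 279 aligned positions, and CCL4 and its copy CCL4L2 (ENSG00000276070) at 7 of 276. Stretches of 60 coding bases that hold several of these differences are shown from GENCODE transcripts, 5′ to 3′ in the direction of the mRNA. Reads over these bases can tell the genes apart, as can reads over other differing bases of the transcripts. Capitals mark the bases that differ within a pair. The stretches begin at coding base 64 of XCL1 and XCL2, at base 199 of CCL3 and 202 of CCL3L1, and at base 178 of CCL4 and CCL4L2.
XCL1: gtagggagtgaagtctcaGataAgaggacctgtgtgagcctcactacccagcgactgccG
XCL2: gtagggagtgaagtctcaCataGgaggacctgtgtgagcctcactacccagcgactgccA
CCL3: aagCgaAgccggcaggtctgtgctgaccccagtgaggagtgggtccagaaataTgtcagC
CCL3L1: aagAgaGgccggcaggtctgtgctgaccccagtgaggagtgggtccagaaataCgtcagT
CCL4: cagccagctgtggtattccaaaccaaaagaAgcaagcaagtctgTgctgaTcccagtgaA
CCL4L2: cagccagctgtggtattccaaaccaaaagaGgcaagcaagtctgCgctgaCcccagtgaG
The XCL1 stretch lies at chr1:168580065-168580124 (plus strand) and that of XCL2 at chr1:168542046-168542105 (minus strand). The CCL3 stretch lies at chr17:36088693-36088752 and that of CCL3L1 at chr17:36195307-36195366, both on the minus strand. The stretches of CCL4 and CCL4L2 run across an intron, from 36104629 to 36105270 and from 36211877 to 36212527 on the plus strand of chromosome 17. The longest run of identical bases between the transcripts compared was 116 bases for XCL1 and XCL2, 83 for CCL3 and CCL3L1, and 144 for CCL4 and CCL4L2, each shorter than a read of 150 bases. Of all windows of 75 bases, 10.4% of those in XCL1 also occur in XCL2. The share was 1.27% for CCL3 in CCL3L1 and 13.8% for CCL4 in CCL4L2. The paper names default settings for the aligner, but how reads with several placements were divided is not stated in the sources used here. The counts of each pair are uncertain to that extent.

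Sequence upstream of the start was found in the RefSeq table (GRCh38.p14) for 6 of the 9 genes. There was no entry for CCL4, CCL5 and XCL1. The 250 bases before the start were searched on both strands for the letters GGGNNNNNCC (NF-kB), GGAAA (NFAT), TGANTCA (AP-1) and TTCNNNGAA (STAT), factors known to act on chemokine genes. Of 35116 upstream stretches of this length in the table, 54.4% held the NF-kB letters, 55.6% the NFAT letters, 6.57% the AP-1 letters and 6.57% the STAT letters. Stretches are shown for CCL3 and XCL2, which were expressed, and for CXCL10 and CCL22, which were near the detection limit, with matches to the NF-kB or NFAT letters in capitals. The 2 motifs can overlap, and neighbouring matches run together.
CCL3: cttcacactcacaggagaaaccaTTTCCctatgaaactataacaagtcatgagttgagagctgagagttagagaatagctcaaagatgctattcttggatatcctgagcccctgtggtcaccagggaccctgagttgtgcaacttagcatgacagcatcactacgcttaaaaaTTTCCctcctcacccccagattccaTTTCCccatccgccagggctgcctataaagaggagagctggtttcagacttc
XCL2: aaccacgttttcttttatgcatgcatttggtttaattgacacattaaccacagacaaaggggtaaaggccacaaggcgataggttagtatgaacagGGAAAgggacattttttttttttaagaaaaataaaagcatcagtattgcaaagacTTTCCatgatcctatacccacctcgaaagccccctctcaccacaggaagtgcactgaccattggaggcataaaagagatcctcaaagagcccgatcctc
CXCL10: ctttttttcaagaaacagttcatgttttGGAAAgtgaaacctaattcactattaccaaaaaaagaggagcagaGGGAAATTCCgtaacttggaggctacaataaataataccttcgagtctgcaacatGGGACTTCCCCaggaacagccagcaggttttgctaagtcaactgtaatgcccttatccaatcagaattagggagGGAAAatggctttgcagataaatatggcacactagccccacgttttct
CCL22: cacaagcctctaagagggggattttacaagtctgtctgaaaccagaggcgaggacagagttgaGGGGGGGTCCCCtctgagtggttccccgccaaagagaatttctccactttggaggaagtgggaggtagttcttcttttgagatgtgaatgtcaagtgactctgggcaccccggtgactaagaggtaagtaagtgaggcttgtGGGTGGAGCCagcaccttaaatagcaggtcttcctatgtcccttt
These stretches are chr17:36090144-36090393 (minus strand) for CCL3, chr1:168543998-168544247 (minus strand) for XCL2, chr4:76023498-76023747 (minus strand) for CXCL10 and chr16:57358533-57358782 (plus strand) for CCL22. CCL3 has further starts in the table, and the one nearest the annotated gene start is shown. The CCL3 stretch shown held 3 NFAT matches and the XCL2 stretch 2, and neither held the NF-kB, AP-1 or STAT letters. Of the other CCL3 starts, the stretch before 36089853 held 1 NF-kB match and that before 36089698 held no match. The CXCL10 stretch held 3 matches of each of the NF-kB and NFAT letters, and the CCL22 stretch held 4 NF-kB matches, of which 3 overlap. The stretches not shown held 2 NF-kB matches and 1 NFAT match for CCL1, and 1 match each of the NF-kB, AP-1 and NFAT letters for CXCL8. A match describes letters only, and binding was not measured.

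The libraries held 33454786 to 39157264 counts, and their scaling factors lay between 0.997 and 1.003. Genes above 1 CPM (counts scaled to library size) in at least 2 libraries were tested with the quasi-likelihood test of edgeR, 12263 in all, and a gene was called at an adjusted p under 0.05. By this rule 15.3% of all genes were called, 7.26% as higher and 8.02% as lower in shmiR155HG cells. MIR155HG, the target of the shRNA, was at 1.88, 1.84 and 1.59 CPM in the shCtrl libraries and at 0.730, 0.499 and 0.299 CPM in the shmiR155HG libraries, so each shmiR155HG library was lower than each shCtrl library (log2 fold change −1.78, SE 0.43, adjusted p = 0.00450, edgeR). Of 15 NK cell marker genes 14 were tested, among them NCAM1 and KLRD1. The summed level of the list was 5004 to 5031 CPM in shCtrl and 4634 to 4800 CPM in shmiR155HG cells. A few genes weigh heavily in this sum: GZMB fell from a mean of 1195 to 543 CPM and IL2RB rose from 1006 to 1270 CPM. Of the 14 tested, 4 were called higher and 3 lower, so the sum does not describe a common shift. The 12 myeloid marker genes summed to 4.65 to 6.80 CPM in shCtrl and 3.78 to 5.49 CPM in shmiR155HG cells, and 5 of them had no count in any library. The 10 T and B cell marker genes summed to 72.2 to 76.0 CPM and 69.2 to 79.5 CPM. Nearly all of this sum was TRAC, with a mean of 72.4 CPM in each group. CSF1R of the myeloid list and TRAC of the lymphocyte list were the only markers of other cells that passed the filter, and neither was called by edgeR (adjusted p = 0.235 and 0.999). In bulk RNA, fewer cells with a transcript and less transcript per cell cannot be told apart.

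Of the 9 chemokine ligands, CCL3, CCL4, CCL5, XCL1 and XCL2 passed the filter on low counts, each with more than 1 CPM in every library, and CCL1, CCL22, CXCL8 and CXCL10 did not. XCL1, XCL2 and CCL4 rose in shmiR155HG cells, CCL3 fell slightly and CCL5 did not pass the test. Thus 3 of the 5 ligands tested were called higher and 1 lower, beside the 15.3% of all genes called, and the median log2 fold change of all genes was 0.00097. The differences were small, from a fold of 0.905 for CCL3 to 1.54 for XCL1. For 3 of the 5 every library of a group lay on the same side of every library of the other, which held for 30.8% of all genes tested.

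**Figure D1:**
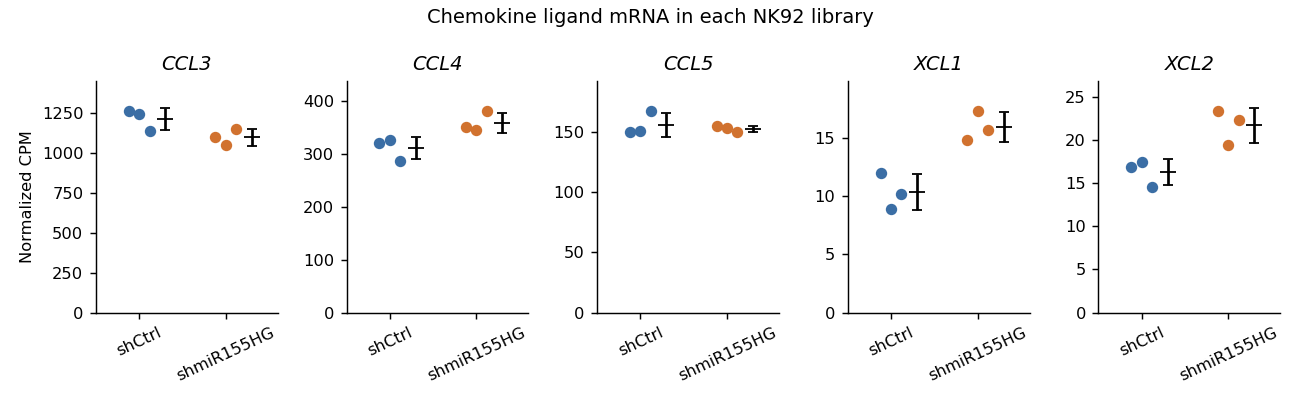
Normalized CPM (y axes, each from 0) of CCL3, CCL4, CCL5, XCL1 and XCL2 in the 3 shCtrl (blue) and 3 shmiR155HG (orange) libraries, drawn from left to right as replicates 1, 2 and 3; bars show the mean and SD of each group. The groups do not overlap for CCL4, XCL1 and XCL2 and overlap for CCL3 and CCL5.

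XCL1 showed the largest fold of the 5 ligands tested. Its normalized level was 12.0, 8.88 and 10.2 CPM in the shCtrl libraries and 14.8, 17.3 and 15.7 CPM in the shmiR155HG libraries. All 3 shmiR155HG libraries were above all 3 shCtrl libraries, and the means were 10.3 ± 1.57 CPM (SD, n = 3) and 15.9 ± 1.26 CPM (SD, n = 3). This was a rise of 53.7%, or 0.62 on the log2 scale with an SE of 0.14 (adjusted p = 0.00186, quasi-likelihood test of edgeR). It was called in each of 15 alternative settings, with values from 0.52 to 0.74. Summing the counts of XCL1 and XCL2 gave 0.50 for the pair (adjusted p = 9.04e-05 by edgeR). This value does not depend on how reads were divided between the copies, and it is not an estimate for XCL1 alone.

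XCL2, the neighbour and copy of XCL1, moved in the same direction. Its level was 16.9, 17.5 and 14.6 CPM in the shCtrl libraries and 23.4, 19.4 and 22.4 CPM in the shmiR155HG libraries. Again the groups did not overlap, with shmiR155HG replicate 2 nearest to the shCtrl libraries. XCL2 rose by 33.2%, or 0.41 on the log2 scale with an SE of 0.11 (adjusted p = 0.0111, quasi-likelihood test of edgeR). Without shCtrl replicate 3 the value was 0.34 with an adjusted p of 0.0547 by edgeR, and without shmiR155HG replicate 1 it was 0.36 with an adjusted p of 0.0720, so the call rests on each of these libraries. The ratio of XCL1 to XCL2 counts was 0.712, 0.508 and 0.697 in shCtrl and 0.633, 0.889 and 0.701 in the shmiR155HG libraries. These values overlap, and the mean log2 ratio differed by 0.22 between the groups (exact permutation test, two-sided, p = 0.5, n = 3 per group), where 3 libraries against 3 cannot give a p under 0.1.

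CCL4, also known as MIP-1 beta, was higher in shmiR155HG cells. It stood at 319.3, 325.4 and 286.0 CPM in the shCtrl libraries and at 349.6, 344.9 and 380.04 CPM in the shmiR155HG libraries. The lowest shmiR155HG library was above the highest shCtrl library. CCL4 rose by 15.4%, or 0.21 on the log2 scale with an SE of 0.045 and a 95% interval from 0.11 to 0.30 (adjusted p = 0.00281, quasi-likelihood test of edgeR). Leaving out 1 library at a time kept the call, with values from 0.15 to 0.24. This change is below the 1.2-fold that the study's own rule asks for (exact test, unadjusted P under 0.01). Applied here to the deposited counts, that rule called 8.29% of all genes, and of the ligands XCL1 and XCL2 as higher and none as lower. The paper reports more genes in each direction than were called here, and the reason was not examined.

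CCL3, or MIP-1 alpha, was the most abundant of the 9 and was lower in shmiR155HG cells by a margin close to the spread. Its level was 1263, 1248 and 1138 CPM in the shCtrl libraries and 1099, 1048 and 1154 CPM in the shmiR155HG libraries. The groups overlapped, because shCtrl replicate 3 was below shmiR155HG replicate 3. CCL3 fell by 0.14 on the log2 scale with an SE of 0.039 (adjusted p = 0.0136, quasi-likelihood test of edgeR), to a fold of 0.905. This call was lost when any of 4 libraries was left out: the adjusted p by edgeR was 0.0712 without shCtrl replicate 1, 0.0760 without shCtrl replicate 2, 0.0567 without shmiR155HG replicate 1 and 0.112 without shmiR155HG replicate 2. With the counts of CCL3L1 added, the log2 fold change was −0.14 (adjusted p = 0.0158 by edgeR). An antisense lncRNA, AC243829.4, overlaps CCL3 and had 212 to 322 counts per library, against at least 38605 for CCL3.

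CCL5, or RANTES, showed no change that passed the test. It stood at 150.04, 150.6 and 167.4 CPM in the shCtrl libraries and at 154.8, 153.01 and 149.98 CPM in the shmiR155HG libraries. The shCtrl values span the shmiR155HG values apart from the lowest. Its log2 fold change of −0.03 had an SE of 0.045 (adjusted p = 0.716, quasi-likelihood test of edgeR), and its 95% interval from −0.12 to 0.06 sets the size of change still possible. Its sign changed without shCtrl replicate 3, to 0.02.

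**Figure D2:**
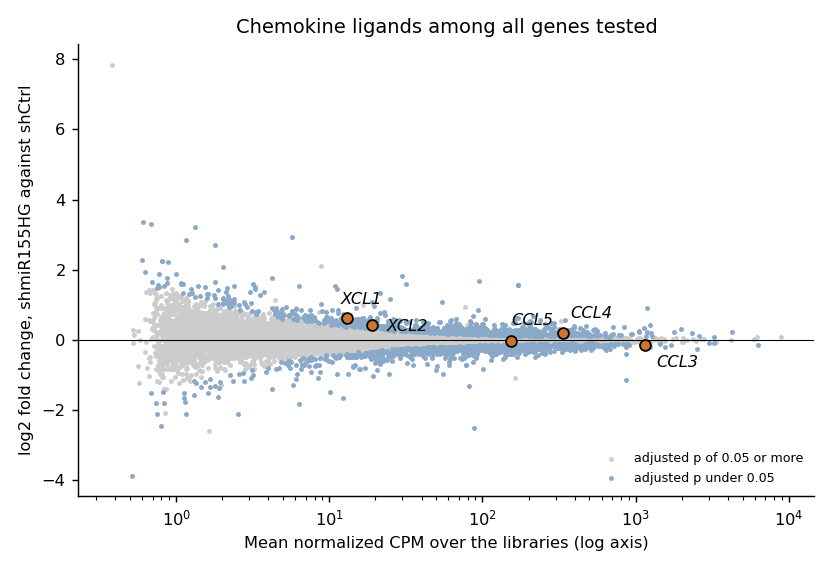
Mean normalized CPM over the 6 libraries (x, log axis) against the log2 fold change of shmiR155HG over shCtrl (y) for the 12263 genes tested; blue points passed an adjusted p of 0.05 and the 5 chemokine ligands are filled in orange. XCL1 and XCL2 lie above 0 at about 10 to 20 CPM, CCL4 slightly above and CCL3 slightly below 0 at the right.

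CCL3 and CCL4 lie side by side and moved in opposite directions, so their ratio within a library, which does not depend on scaling, was compared. CCL3 had 3.96, 3.83 and 3.98 counts for each count of CCL4 in the shCtrl libraries, and 3.14, 3.04 and 3.04 in the shmiR155HG libraries. Every shmiR155HG library had a lower ratio than every shCtrl library. The mean log2 ratio was 1.97 ± 0.029 (SD, n = 3) in shCtrl and 1.62 ± 0.028 (SD, n = 3) in shmiR155HG cells, a difference of −0.35. The exact permutation test (two-sided, n = 3 per group) gave p = 0.1, the smallest p that this design allows. Leaving out 1 library at a time gave differences from −0.37 to −0.34. The ratio shows unequal change of the 2 mRNAs and not which of them moved.

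**Figure D3:**
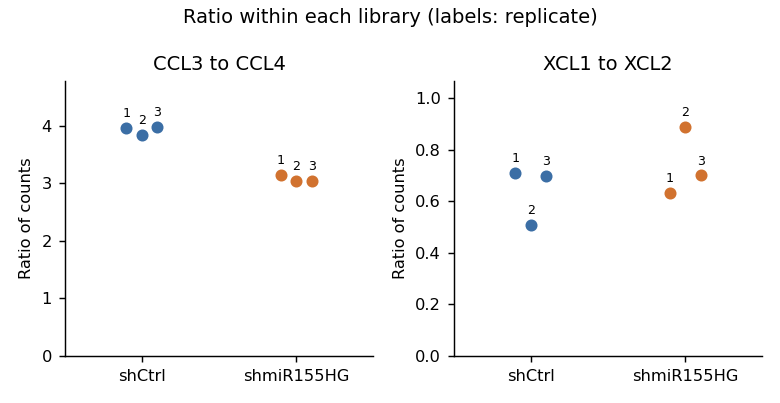
Ratio of CCL3 to CCL4 counts (left) and of XCL1 to XCL2 counts (right) within each library, with y axes from 0, groups on the x axis and replicate numbers beside the points. The CCL3 to CCL4 ratio is near 4 in the shCtrl libraries and near 3 in the shmiR155HG libraries, whereas the XCL1 to XCL2 ratios overlap.

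The copies on the same stretch of chromosome 17 were compared next. CCL4L2 was at 9.64, 9.24 and 5.41 CPM in shCtrl and at 15.04, 15.2 and 13.6 CPM in the shmiR155HG libraries. The groups did not overlap, and CCL4L2 rose by 0.85 on the log2 scale with an SE of 0.17 (adjusted p = 0.000701, quasi-likelihood test of edgeR). CCL3L1 was at 26.8, 25.5 and 25.2 CPM in shCtrl and at 26.7, 28.9 and 28.9 CPM in the shmiR155HG libraries, and its difference of 0.12 on the log2 scale (SE 0.088, adjusted p = 0.397) did not pass the test. The ratio of CCL4 to CCL4L2 counts was 33.1, 35.2 and 52.8 in shCtrl and 23.3, 22.7 and 27.996 in the shmiR155HG libraries. The ratio of CCL3 to CCL3L1 counts was 47.1, 48.9 and 45.2 against 41.2, 36.3 and 39.9. Both ratios were lower in every shmiR155HG library than in every shCtrl library (exact permutation test, two-sided, n = 3 per group, p = 0.1 for each, the smallest possible), and these 2 ratios were chosen after the values were seen. CCL18, which lies 16.2 kb from CCL3 and attracts naive lymphocytes, was at 43.1, 39.3 and 42.3 CPM in shCtrl against 34.8, 36.4 and 42.6 CPM in the shmiR155HG libraries, a difference of −0.13 on the log2 scale (SE 0.081, adjusted p = 0.304) that did not pass the test either. Within 200 kb of the start of CCL3, 7 other genes were tested, of which CCL4 and CCL4L2 were called and the other 5 were not. None of the 5 genes tested within 200 kb of CCL5 was called by edgeR at an adjusted p under 0.05.

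Levels of different genes were compared per length of the canonical transcript, as normalized CPM per kb. In shCtrl cells the order was CCL3 (1559 ± 87.3, SD, n = 3), CCL4 (470.1 ± 32.1), CCL5 (120.1 ± 7.58), XCL2 (29.02 ± 2.73) and XCL1 (8.43 ± 1.28). In shmiR155HG cells the order was the same, with 1411 ± 67.95 for CCL3, 542.7 ± 28.9 for CCL4, 117.5 ± 1.88 for CCL5, 38.7 ± 3.64 for XCL2 and 12.97 ± 1.03 for XCL1. No library of a gene overlapped a library of its neighbour in this order in either group. The step from CCL3 to CCL4 was 3.32-fold in shCtrl and 2.60-fold in shmiR155HG cells, and that from CCL5 to XCL2 was 4.14-fold and 3.04-fold. By this measure CCL3 ranked 18th in shCtrl and 21st in shmiR155HG cells among 12216 genes with a length, and XCL1 ranked 6806th and 5489th. XCL1 has the longer canonical transcript, 1227 nt against 562 nt for XCL2, and which isoforms these cells use is not known from gene counts.

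The 8 chemokine genes tested, which add CCL3L1, CCL4L2 and CCL18 to the 5 ligands, summed to 2261 ± 117.0 CPM per kb (SD, n = 3) in shCtrl and 2205 ± 97.6 CPM per kb (SD, n = 3) in shmiR155HG cells. The totals of the groups overlapped, with 2126 to 2336 and 2115 to 2309. CCL3 took 69.3%, 68.95% and 68.6% of this sum in the shCtrl libraries and 64.3%, 63.5% and 64.1% in the shmiR155HG libraries. CCL4 took 20.7%, 21.3% and 20.4% against 24.2%, 24.7% and 24.9%. XCL1 and XCL2 together with CCL4L2 made up small shares, with means of 0.373%, 1.28% and 0.422% in shCtrl and 0.590%, 1.75% and 0.790% in shmiR155HG cells, while the share of CCL5 had a mean of 5.33% in shCtrl and 5.34% in shmiR155HG cells. Shares of a sum are tied to each other, so a lower share of CCL3 raises the others.

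**Figure D4:**
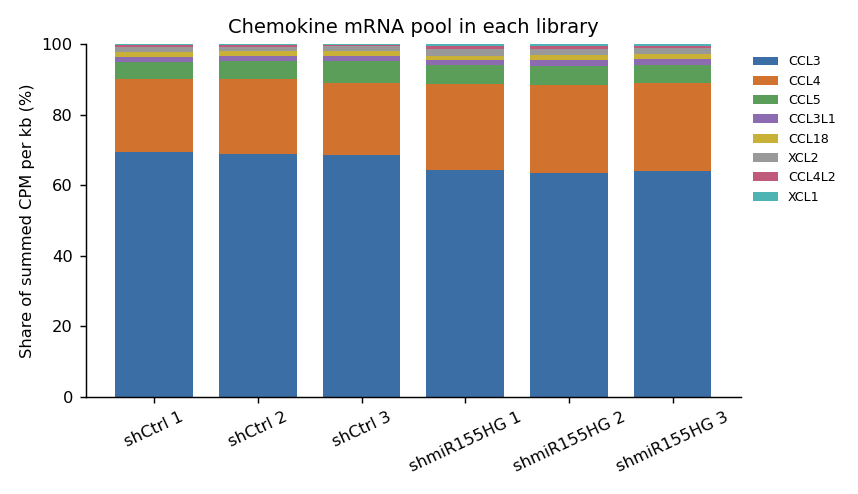
Share of each of 8 chemokine genes (y axis, %) in their summed normalized CPM per kb, one bar for each library (x axis). The CCL3 share lies between 68.6% and 69.3% in the shCtrl libraries and between 63.5% and 64.3% in the shmiR155HG libraries, and CCL4 fills most of the difference.

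The other ligands were barely detected. CCL22 had 17, 0 and 32 counts in the shCtrl libraries and 8, 10 and 11 counts in the shmiR155HG libraries. Its shCtrl values enclose the shmiR155HG values, so no difference was detectable at this depth. CCL1 had 2, 6 and 0 counts in shCtrl and none in the shmiR155HG libraries, CXCL8 had 3 counts in shCtrl replicate 3 and 8 in shmiR155HG replicate 1 only, and CXCL10 had 4 counts in shCtrl replicate 3 only. A count of 0 allows up to 0.0770 to 0.0897 CPM, taken as 3 counts of a library, which covers counting error only. This bound takes each count as a single read, which the sources used here do not settle. Of 35 further chemokine ligand genes, CCL18 alone was tested, and 23 had no count in any library, among them CXCL9, CCL2 and CCL20. The highest count among the 34 not tested was 16. CXCL9 and CXCL11, which like CXCL10 are induced by interferon gamma, had at most 6 counts in a library.

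Receptors of the 9 ligands were examined because NK cells carry several of them. Of 11 receptor genes in the list, 7 were tested, 1 rose and 2 fell, beside the 15.3% of all genes called. XCR1, the receptor of XCL1 and XCL2, was at 1.21, 1.32 and 1.54 CPM in shCtrl and 0.365, 0.210 and 0.150 CPM in the shmiR155HG libraries. Its log2 fold change was −2.46 (SE 0.50, adjusted p = 0.000896, quasi-likelihood test of edgeR), on 5 to 60 counts per library. XCR1 passed the filter on low counts only through the shCtrl libraries, which favours a call as lower. CCR1, which binds CCL3 and CCL5, was at 277.8, 274.9 and 281.3 CPM in shCtrl and at 216.6, 215.7 and 209.7 CPM in the shmiR155HG libraries. It fell by 0.38 on the log2 scale (SE 0.036, adjusted p = 1.46e-08). CXCR3, the receptor of CXCL10, rose from 127.9, 133.8 and 125.1 CPM to 147.004, 154.98 and 168.3 CPM (log2 fold change 0.28, SE 0.049, adjusted p = 0.000137, edgeR) and its ligand was at the detection limit. CCR3 (−1.23, adjusted p = 0.0926), CXCR1 (1.23, adjusted p = 0.0635) and ACKR2 (−0.50, adjusted p = 0.457) did not pass the edgeR test, and CCR4, CCR8, CXCR2 and ACKR1 had at most 11 counts.

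**Figure D5:**
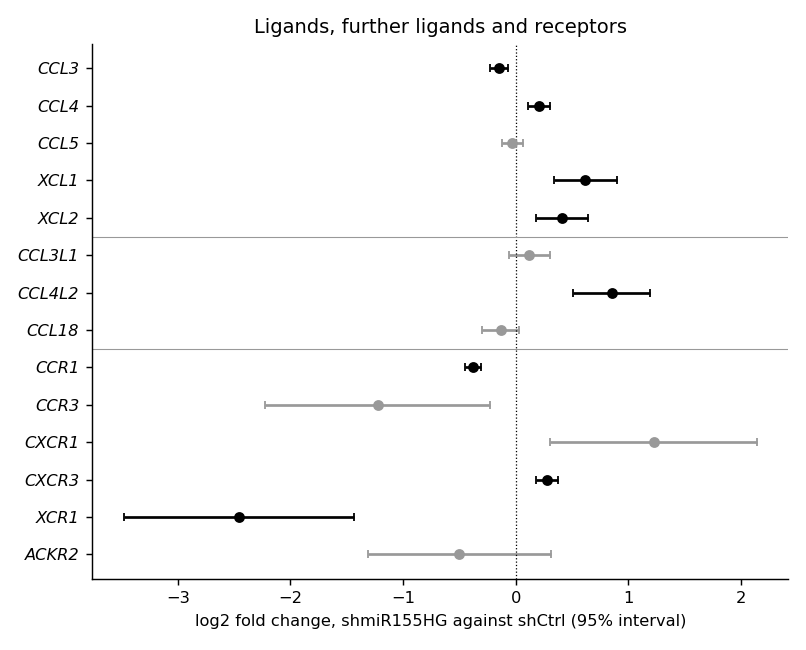
Log2 fold change of shmiR155HG over shCtrl (x axis) with its 95% interval for the 5 ligands tested (top), further ligands of the same family (middle) and receptors (bottom); black marks genes with an adjusted p under 0.05 and grey the others. XCL1, XCL2, CCL4, CCL4L2 and CXCR3 lie to the right of 0, and CCL3, CCR1 and XCR1 to the left.

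Genes known to act on chemokine transcription included 22 that were tested, of which 10 rose and 2 fell, with a median log2 fold change of 0.14 beside 0.00097 for all genes. Over all genes 7.26% were called higher and 8.02% lower. The list was chosen by symbol with earlier results of these data known, so these counts are not a test of the list. The same holds for the ligands themselves, the receptor list above and the lists below. The largest changes were in some of the immediate early genes, a class that responds soon after stimulation, whereas RNA was taken here at 12 h. Of the same class FOS rose by 0.36 (adjusted p = 0.0345, edgeR). JUN (−0.03, adjusted p = 0.776) and JUNB (−0.08, adjusted p = 0.388) did not pass the edgeR test. On the log2 scale EGR2 rose by 1.78 (SE 0.25, adjusted p = 7.47e-06, edgeR), EGR1 by 0.90 (SE 0.13, adjusted p = 6.63e-06) and FOSB by 1.18 (SE 0.37, adjusted p = 0.0288), while JUND, another AP-1 subunit, rose by 0.57 (SE 0.039, adjusted p = 2.56e-11). The call of FOSB was lost when any library but shCtrl replicate 2 was left out, with a highest adjusted p of 0.125 by edgeR without shCtrl replicate 3. NFKBIA, an inhibitor of NF-kB, fell by 0.29 (SE 0.042, adjusted p = 1.47e-05). The NF-kB subunit genes NFKB1, NFKB2, REL, RELA and RELB were not called, with adjusted p from 0.216 to 0.974 by edgeR. TNFAIP3 of the same list was not called either (adjusted p = 0.180 by edgeR). Whether these genes bear on the chemokine mRNAs was not tested.

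Many chemokine mRNAs are short-lived through AU-rich elements in their 3′ ends, so regulators of mRNA stability were listed as well. Of 13 tested, 2 rose and 1 fell, or 23.1% called beside 15.3% of all genes, and the median log2 fold change was −0.03. A share this near to that of all genes is not a result about the group, and the genes that passed are given singly. ZFP36L2, which promotes decay of such mRNAs, rose by 0.38 on the log2 scale (SE 0.066, adjusted p = 0.000154, edgeR). RC3H1, or Roquin-1, also an inhibitor of mRNA stability, rose by 0.23 (SE 0.071, adjusted p = 0.0244), and TIA1, a repressor of translation, fell by 0.27 (SE 0.066, adjusted p = 0.00509). The calls of RC3H1 and TIA1 were lost when single libraries were left out: that of RC3H1 without shCtrl replicate 1 (adjusted p = 0.123), without shCtrl replicate 3 (0.0508), without shmiR155HG replicate 2 (0.0754) or without shmiR155HG replicate 3 (0.104), and that of TIA1 without shmiR155HG replicate 2 (0.0535), all by edgeR.

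Among 12 interferon gamma induced genes tested, 2 rose and 3 fell beside the 15.3% of all genes called, with a median log2 fold change of −0.01. CD274 (PD-L1) fell by 0.58 (SE 0.18, adjusted p = 0.0248, edgeR) and GBP2 by 0.51 (SE 0.066, adjusted p = 2.14e-06), while the peptide transporter TAP1 rose by 0.13 (SE 0.034, adjusted p = 0.00985). The call of CD274 was lost without any 1 of the 3 shCtrl libraries or without shmiR155HG replicate 1, with a highest adjusted p of 0.144 by edgeR. NK cell marker genes split in direction, with 4 higher and 3 lower of 14 tested, beside 7.26% and 8.02% of all genes. GZMB, granzyme B, fell by 1.14 on the log2 scale (SE 0.036, adjusted p = 7.03e-19, edgeR), while IL2RB (0.34, SE 0.032, adjusted p = 1.35e-08), EOMES (0.32, SE 0.039, adjusted p = 7.74e-07) and TBX21 (0.27, SE 0.037, adjusted p = 4.99e-06), a receptor chain for IL-2 and 2 transcription factors of NK cells, rose.

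For the 2 ligands with the largest changes, the genes with the most similar pattern over the 6 libraries were sought by the root mean square distance in log2 CPM, centred on the shCtrl mean. Genes sought in this way share the direction and size of the change by construction, so their values describe the match and nothing further. CYB5D1 was nearest to XCL1 (distance 0.084, log2 fold change 0.57, adjusted p = 0.00292 by edgeR), followed by TLCD3B (0.086) and HIST2H4A (0.094), which did not pass the test (adjusted p = 0.0536 and 0.172). NFKBIE, an inhibitor of NF-kB, was nearest to XCL2 (distance 0.042, log2 fold change 0.44, adjusted p = 0.00659 by edgeR), followed by the lncRNAs MHENCR (0.043) and AC109347.1 (0.047), which did not pass (adjusted p = 0.0823 and 0.317). HIST2H4A and AC109347.1 had means of only 1.77 and 0.752 CPM. Their log2 fold changes were 0.74 (SE 0.35) and 0.74 (SE 0.46), against 0.62 for XCL1 and 0.41 for XCL2. The pseudocount of 0.5 CPM shrinks differences at such low levels, so these 2 distances are less telling.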

How the data were processed

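The authors aligned read pairs of 150 bases to hg38 with HISAT2 at default settings, quantified known transcripts with StringTie and built the matrix with prepDE.py3. They deposited whole-number counts per gene, not normalized, for all 6 libraries. Annotation release, strandedness and the read length given to prepDE.py3 are not given in the sources used here, so overlapping antisense genes could share counts. The members and gene lists were chosen with earlier results of these data known.

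The software was edgeR 4.0.16, DESeq2 1.42.0 and limma 3.58.1 under R 4.3.3. The study's filter (over 1 CPM in 2 or more libraries) was kept, and the genes left were scaled by TMM and tested across all genes with edgeR's quasi-likelihood test (robust, no block, Benjamini-Hochberg adjustment). Normalized CPM is relative to the counts of the genes tested. SE values are the log2 fold change divided by the root of F. Named genes were all members, MIR155HG, receptors called, up to 4 genes with the largest called change per list (NFKBIA, FOS, AC243829.4 and the other genes named without a call were added after their values were seen) and the 3 nearest genes of 2 members (pseudocount 0.5 CPM). Positions, lengths and transcripts came from GENCODE v44 (hg38).

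Alternatives were other scalings, filters, halved counts, other tests, a replicate block, summed copies and each library left out. The test was checked on simulated counts. Taking each count as a single read, replicates differed by more than sampling noise (mean chi-square 7.35 to 10.9 per gene). The labels name no batch. Some genes of the lists are counted but not reported here by name.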

Additional observations from a re-analysis of the deposited data

How the results depend on the processing

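XCL1 and MIR155HG kept their direction and their call in each alternative that was run, as did CCL4 in all but the study's exact test (unadjusted P under 0.01, fold over 1.2), where its log2 fold change of 0.21 fell short of the fold. That rule called XCL1 and XCL2 and no member as lower (0 against 1), left CCL3 (−0.14) uncalled, and called 466 genes lower and 551 higher against 984 and 890. The number of members called higher ranged from 2 to 3 when libraries were left out and the number called lower from 0 to 1; over all genes 674 to 917 were lower and 580 to 891 higher, the lowest counts both without shmiR155HG replicate 2. Left-out libraries moved CCL3 between −0.19 and −0.11, XCL2 between 0.34 and 0.49, and CCL5 between −0.058 and 0.024, where CCL5 reversed only without shCtrl replicate 3 (0.024, adjusted p = 0.785 by edgeR). With the replicate number as a block in edgeR, the adjusted p was 0.0384 for CCL3 (−0.14) and no call of a member changed. The deviations of same-numbered libraries had correlations of −0.018, 0.00098 and 0.0035 over all genes tested. These values show no sign of pairing by number, but a weak pairing could be hidden by counting noise. Scaling did not move the median of all genes by more than 0.1. The 4 other members could not be tested because of their low counts, and small changes like that of CCL3 are at the limit of 3 libraries per group.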
